A study of Mus musculus with 2 samples.

Results

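Neutrophils of subcutaneous RM-1 prostate tumours were taken from 2 single-cell RNA libraries as barcodes rich in the calgranulin transcripts S100a8 and S100a9. A barcode belonged to the set when it had at least 200 detected genes, at most 15% mitochondrial UMIs (unique transcript molecules), at most 3 UMIs of the epithelial keratins Krt8 and Krt18 together, at most 2 UMIs of the macrophage complement genes C1qa, C1qb and C1qc together, and at least 10 UMIs of S100a8 and S100a9 together. In all, 72 of 20198 barcodes met this rule. They were 46 of 10512 barcodes in the RP-6306 library and 26 of 9686 in the vehicle library.

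RP-6306 inhibits the kinase PKMYT1, which restrains entry into mitosis, and RM-1 is a mouse prostate cancer cell line. The RP-6306 group is subcutaneous RM-1 tumour tissue from C57BL/6 mice, taken after 10 days of RP-6306, and the vehicle group is the same kind of graft after 10 days of vehicle. The ages of the mice are not given in the sources used here. Both groups carry the genotype label WT, and the labelled cell type is the cancer line, although the barcodes include host cells such as the neutrophils described here. The design text names 2 tumour-bearing mice without a clear number per library, so each group counts as 1 sample and no test, standard error or p-value can be given. All intervals are 95% intervals that cover counting error only, and the words "higher" and "lower" rank 2 single libraries and say nothing of treatment effects.

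Neutrophils are short-lived granulocytes made in the bone marrow and carried by the blood into inflamed tissue and tumours. During their development, myelocytes and metamyelocytes fill secondary granules with proteins encoded by genes such as Ngp, Camp and Ltf, and later stages shut these genes off and gain receptors such as Cxcr2 and Il1r2. S100a8 and S100a9 encode the subunits of calprotectin, the main cytosolic protein of neutrophils, and both are also found in monocytes and in stressed keratinocytes.

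Among the neutrophils, UMIs of the granule genes Ngp, Camp and Ltf lay almost wholly in a few RP-6306 barcodes. All 3 genes lie on mouse chromosome 9. Looked up by identifier in the GENCODE M21 annotation of the GRCm38 build, Ngp (ENSMUSG00000032484) lies at chr9:110419747-110423012 on the plus strand, Camp (ENSMUSG00000038357) at chr9:109847379-109849617 on the minus strand and Ltf (ENSMUSG00000032496) at chr9:111019271-111042767 on the plus strand. All are protein-coding. The 250 bases before each RefSeq transcription start (build GRCm38.p6) are shown because these genes were found together in the same cells. The RefSeq starts lie inside the GENCODE spans above, so each window overlaps its gene's span in part, and the Camp window for the most part. They run 5′ to 3′ on the gene's own strand, and capitals mark matches to TTGCNNAA on either strand, a core form of the site bound by C/EBP factors, which include regulators of granulocyte development. Of 32851 such windows in the RefSeq table, 9.56% hold a match.
Ngp, chr9:110419558-110419807: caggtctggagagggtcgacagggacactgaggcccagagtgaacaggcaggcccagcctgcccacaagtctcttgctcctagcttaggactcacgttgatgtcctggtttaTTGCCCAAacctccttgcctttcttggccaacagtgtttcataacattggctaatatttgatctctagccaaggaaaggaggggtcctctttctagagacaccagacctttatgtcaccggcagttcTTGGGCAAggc
Camp, chr9:109849457-109849706: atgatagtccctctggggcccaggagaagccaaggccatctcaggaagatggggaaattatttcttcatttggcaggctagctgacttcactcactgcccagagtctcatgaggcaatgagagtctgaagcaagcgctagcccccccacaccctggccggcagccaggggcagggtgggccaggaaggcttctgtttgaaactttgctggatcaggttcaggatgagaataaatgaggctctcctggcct
Ltf, chr9:111019042-111019291: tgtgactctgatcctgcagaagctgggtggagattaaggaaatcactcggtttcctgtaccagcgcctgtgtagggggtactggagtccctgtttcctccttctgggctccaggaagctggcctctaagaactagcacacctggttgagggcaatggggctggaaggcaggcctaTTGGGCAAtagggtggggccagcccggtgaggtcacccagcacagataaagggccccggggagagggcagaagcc
The Ngp window holds 2 matches, starting 138 and 11 bases before the RefSeq start, the Ltf window holds 1, starting 75 bases before it, and the Camp window holds 0. The Ngp match at 11 bases lies inside the GENCODE span of Ngp. A match is a description of the letters and not a shown binding site.

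The libraries held 106465655 UMIs (RP-6306) and 100815022 UMIs (vehicle), with medians of 8932 and 9086.5 UMIs per barcode, and neither file lists a barcode under 500 UMIs. Neutrophil barcodes sat near that floor. They had a median of 737 UMIs in the RP-6306 library (500 to 12134) and of 715 UMIs in the vehicle library (503 to 2442), with medians of 396.5 and 381 detected genes. Under 1000 UMIs lay 32 of the 46 RP-6306 neutrophils and 22 of the 26 vehicle neutrophils, which made up 10.7% of 300 and 11.6% of 190 kept barcodes of that depth. Under 600 UMIs lay 5 and 8 of them. Neutrophils with fewer than 500 UMIs were not analysed here, so every share below is a share of barcodes above that depth. The libraries shared 34 barcode sequences, and 0 of these belonged to a neutrophil.

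Of the barcodes that passed the gene and mitochondrial limits, neutrophils were 0.439% in the RP-6306 library (46 of 10486, exact binomial interval 0.321 to 0.585%) and 0.269% in the vehicle library (26 of 9662, 0.176 to 0.394%). The difference was 0.170 percentage points with an interval of -0.0018 to 0.343, so it was not separable from counting error. Against leukocytes, taken as keratin-low barcodes with a UMI of the pan-leukocyte gene Ptprc, neutrophils with Ptprc were 30 of 489 in the RP-6306 library (6.13%) and 11 of 445 in the vehicle library (2.47%), a difference of 3.66 points (0.929 to 6.46). That second share rests on Ptprc being seen at all in shallow barcodes. It was seen in 30 of the 46 RP-6306 neutrophils and in 11 of the 26 vehicle neutrophils. The RP-6306 count includes 3 barcodes with collagen or other cell markers and 3 with monocyte genes, described below. The vehicle count includes 1 barcode with monocyte genes. The share of leukocytes was not computed without them.

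The neutrophil label held for most of the set but not for all of it. Markers other than the 2 rule genes were found in most barcodes. Retnlg, a resistin-like protein of neutrophils, was seen in 36 of 46 RP-6306 barcodes and 17 of 26 vehicle barcodes. G0s2, a lipase inhibitor abundant in mature neutrophils, was seen in 34 of 46 and 19 of 26. Csf3r, the receptor for the growth factor G-CSF, was seen in 20 of 46 and 10 of 26, and the chemokine receptor gene Cxcr2 in 19 of 46 and 6 of 26. T and NK cell, B cell, basophil and mast cell markers were at 0 in all 72 barcodes.

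The exceptions were mostly deep barcodes of the RP-6306 library. The deepest, with 12134 UMIs, had none of Csf3r, Retnlg, Cxcr2 or G0s2. It held 296 UMIs of Krt14, 245 of Krt16, 303 of Ly6d, 280 of Lgals7 and 1035 of Fabp5, all genes of stratified epidermis, next to 218 UMIs of S100a8 and 166 of S100a9. This barcode alone supplied 17.3% of the UMIs of the RP-6306 neutrophils. Another 3 RP-6306 barcodes (1089, 4944 and 6323 UMIs) held at least 3 UMIs of other cells' markers, mainly collagen genes, beside 15 UMIs of Retnlg and 56 of G0s2, and supplied 17.6%. Finally, 3 RP-6306 barcodes (2521, 2690 and 4418 UMIs, 13.7%) and 1 vehicle barcode (2442 UMIs, 11.4%) carried monocyte genes. The 3 held 74 UMIs of Plac8, 58 of Lyz2 and 20 of Vcan, and none of Retnlg, and the vehicle barcode held 8, 12 and 2 UMIs of the same genes and also none of Retnlg. Genes of the granule and maturity lists used below were found in the 3 too: 73 UMIs of Chil3, 21 of Wfdc21, 19 of Lcn2, 11 of Il1r2 and 9 of Mmp8. Lyz2 is also on the granule list, and Chil3 is on the monocyte list as well. The barcode with 4418 UMIs alone held 53 of Chil3, 16 of Lcn2 and 10 of Il1r2, beside 243 calgranulin UMIs. Whether it is a monocyte or an immature neutrophil was not tested.

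Leaving these out gave 39 RP-6306 and 25 vehicle barcodes, called marker-clean here: fewer than 3 UMIs over the T and NK, B, fibroblast, endothelial, tumour and macrophage markers, and fewer than 10 UMIs each of monocyte and of epidermal genes. This set was defined after the data were seen. In it, the macrophage list was at 1 UMI in each library and the monocyte list at 805 CPM (UMI counts scaled to the same total in each set) in the RP-6306 library and 370 CPM in the vehicle library. Its median depth was 713 UMIs in the RP-6306 library and 676 in the vehicle library, and its share of kept barcodes was 0.372% and 0.259%, a difference of 0.113 points (-0.050 to 0.277). Because the mixed barcodes hold so many of the UMIs, levels below are those of the marker-clean barcodes unless all 72 are named, and ratios over all 72 follow where they move a result.

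**Figure D1:**
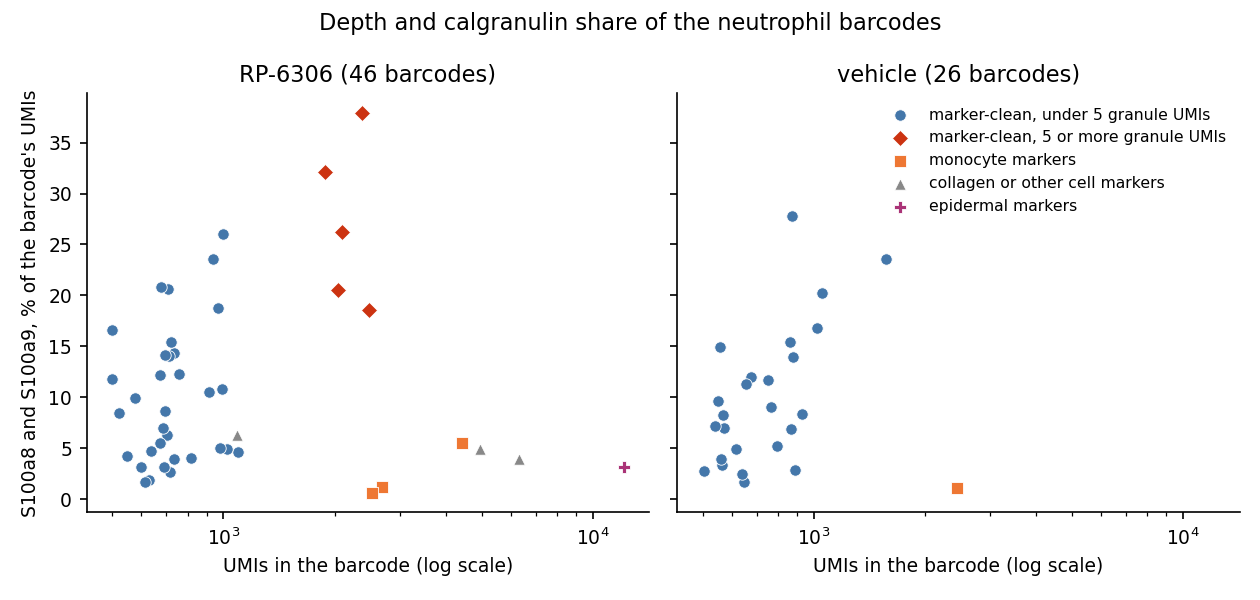
Each point is a neutrophil barcode, with its UMIs on a log scale (x) and the percent of them from S100a8 and S100a9 (y), RP-6306 left and vehicle right; colours and shapes mark the marker-clean barcodes and those with markers of other cells. Most points lie under 1000 UMIs, the 7 RP-6306 barcodes with other markers reach 12134 UMIs at low calgranulin shares, and 5 marker-clean RP-6306 barcodes lie between 1888 and 2475 UMIs with calgranulin shares of 18.6 to 38.0%.

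Around the limit of 10 calgranulin UMIs there was no gap. Just inside it, with 10 to 19 UMIs, lay 5 RP-6306 and 4 vehicle barcodes, of which 5 and 3 held another neutrophil marker. Just outside it, with 5 to 9 UMIs, lay 7 RP-6306 and 5 vehicle barcodes, of which 3 and 3 held such a marker and 3 and 3 held at least 5 UMIs of the lysozyme gene Lyz2. Lyz2 is abundant in macrophages and monocytes but is also on the granule list used below, so it does not tell these barcodes from neutrophils. The keratin limit alone kept out 8 RP-6306 barcodes (6097 to 23855 UMIs) and 4 vehicle barcodes (6293 to 16750 UMIs), and 7 and 4 of these held another neutrophil marker. The C1q limit alone kept out 0 barcodes in each library. Neutrophils as defined held 86.0% of all S100a8 UMIs of kept barcodes in the RP-6306 library and 77.8% in the vehicle library, and 88.8% and 88.3% of the Retnlg UMIs.

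Among the neutrophils, transcripts of these 3 secondary granule genes, Ngp, Camp and Ltf, were almost confined to a handful of RP-6306 barcodes. Ngp, which encodes neutrophilic granule protein, had 202 UMIs in 7 RP-6306 neutrophils and 1 UMI in 1 vehicle neutrophil. Camp, the gene of the antimicrobial peptide cathelicidin, had 95 UMIs in 4 RP-6306 neutrophils and 1 UMI in the vehicle neutrophil that held Ngp. Ltf, which encodes the iron-binding protein lactoferrin, had 49 UMIs in 4 RP-6306 neutrophils and 0 in the vehicle neutrophils. Together the 3 genes stood at 4933 CPM in the RP-6306 neutrophils (346 UMIs, Poisson interval 4427 to 5481) and 93.7 CPM in the vehicle neutrophils (2 UMIs, 11.3 to 338), a ratio of 52.7 (14.5 to 437). Among marker-clean barcodes the levels were 9606 CPM (RP-6306) and 106 CPM (vehicle), a ratio of 90.8 (24.96 to 753). The 15-gene list of immature granule genes, which adds genes such as Lcn2, Lyz2 and Wfdc21, had a smaller ratio, 1.98 (1.68 to 2.34) over all 72 barcodes and 3.42 (2.85 to 4.14) in the marker-clean ones. These intervals treat UMIs as independent, while 5 barcodes held 344 of the 346, so they are too narrow for a statement about cells.

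Counted by cell, the contrast was smaller, and the intervals of the shares overlapped. A granule gene was seen in 7 of 46 RP-6306 neutrophils (15.2%, 6.34 to 28.9%) and in 1 of 26 vehicle neutrophils (3.85%, 0.0973 to 19.6%). With every barcode thinned to 500 UMIs it was seen in 6 of 46 (13.04%) and again in 1 of 26. Among keratin-positive barcodes 0.713% (RP-6306, median 10786 UMIs) and 0.509% (vehicle, median 10751 UMIs) had one, lower shares at a greater depth. Most of these held Ltf, seen in 33 of 7573 RP-6306 and 36 of 7273 vehicle keratin-positive barcodes. Ngp was seen in 14 and 1 of them and Camp in 7 and 0, so the pooled share is not the same background for each gene. Over all kept barcodes, the RP-6306 library held 219 Ngp UMIs in 24 barcodes and the vehicle library 4 in 2 barcodes. Outside neutrophils, Ltf had 37 UMIs in 37 RP-6306 barcodes and 48 UMIs in 47 vehicle barcodes.

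The 5 granule-high barcodes, with at least 5 UMIs of Ngp, Camp and Ltf together, held 59, 58, 48, 29 and 6 UMIs of Ngp. The barcode with 58 Ngp UMIs held 65 of the 95 Camp UMIs and 26 of the 49 Ltf UMIs, and the one with 59 held 23 and 13. The barcode with 6 Ngp UMIs had 0 of Camp and 0 of Ltf. The group was therefore graded, with granule sums of 149, 95, 60, 34 and 6 UMIs.

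Other genes of granule and late granule stages were abundant in the same 5 barcodes. Lcn2, which encodes the siderophore-binding lipocalin, had 19 to 49 UMIs per barcode there and stood at 14605 CPM, against 1790 CPM in the other 34 marker-clean RP-6306 barcodes. Wfdc21 stood at 9369 against 3621 CPM, Retnlg at 24984 against 9032 CPM, and Pglyrp1, a peptidoglycan-binding granule protein, at 2939 against 477 CPM. Mmp8, the neutrophil collagenase, was at 2113 against 915 CPM, and Mmp9, the gelatinase of tertiary granules, at 1562 against 517 CPM. The calgranulins took 18.6 to 38.0% of each barcode's UMIs, against a median of 8.55% in the other 34.

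Most members of most lists were lower in the 5, inflammatory genes among them. All 14 detected chemokine and cytokine genes were lower, several of them with 1 or 2 UMIs in all. The list summed to 9093 CPM in the 5 against 56380 CPM in the other 34. Most members were lower in other lists too, such as 17 of 18 tumour-associated, 13 of 14 NF-kB and 12 of 14 immediate-early genes. The same held for 17 of 21 hypoxia and glycolysis genes and 18 of 26 type I interferon response genes. Lists with most members higher were the immature granule (12 of 13), NADPH oxidase (6 of 7), and stefin and calgranulin (5 of 8) lists. The immature granule count includes Ngp, Camp and Ltf, by which the 5 barcodes were picked. The stefin and calgranulin count includes S100a8 and S100a9, which the rule used. The share over all genes was not computed for this contrast, so these counts do not set any list apart. Il1b, the gene of interleukin 1 beta, had 0 to 3 UMIs per barcode and stood at 367 CPM, against 6724 CPM in the other 34. The chemokine gene Cxcl2 was at 4317 against 32825 CPM, Fth1, the ferritin heavy chain, at 9736 against 57255 CPM, and Nfkbia, which encodes an NF-kB inhibitor, at 276 against 5013 CPM. Maturity genes went both ways: 7 of 15 were higher in the 5 and 8 lower, and the list summed to 49141 against 34894 CPM. This list also holds Retnlg, Pglyrp1 and Mmp9, already named above, and its higher sum rests on Retnlg (24984 against 9032 CPM). Csf3r had 0 UMIs in the 5 barcodes and 21 in the other 34, while G0s2 was at 12768 against 10425 CPM and Cxcr2 at 643 against 637 CPM. The genes of primary granules made at an earlier stage, Elane, Mpo and Ctsg, were at 0 in all marker-clean barcodes, and the cell division gene Mki67 was at 0 in them too. The 5 barcodes were deeper (1888 to 2475 UMIs) than the other 34 (500 to 1095 UMIs), and as they were picked by these values, the contrast is a description.

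Transcripts of mature neutrophils were seen in most cells of both libraries, mainly through G0s2. Il1r2 was seen in 17 of 46 RP-6306 and 13 of 26 vehicle neutrophils, and Cxcr2 in the shares given above. Cxcr2, Il1r2 (a decoy receptor for interleukin 1) and G0s2 together were seen in 40 of 46 RP-6306 neutrophils (86.96%, 73.7 to 95.1%) and 23 of 26 vehicle neutrophils (88.5%, 69.8 to 97.6%). Per barcode the sum ran from 0 to 64 UMIs with a median of 6.5 in the RP-6306 library, and from 0 to 59 with a median of 6 in the vehicle library, so the libraries overlapped throughout. Over all 72 barcodes the summed level was 7400 CPM in the RP-6306 library and 11004 CPM in the vehicle library, a ratio of 0.672 (0.575 to 0.788). Among marker-clean barcodes the RP-6306 level was 12354 CPM and the vehicle level 12372 CPM (ratio 0.999, 0.850 to 1.17). The lower pooled level therefore went with the UMIs of the 7 mixed RP-6306 barcodes. It also depended on scaling: over all 72 barcodes the log2 ratios of G0s2 and Retnlg were -0.55 and -0.53 under CPM, and -0.0017 and 0.02 with TMM scaling.

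Each mature gene can be read the same way. G0s2 supplied most of the sum and stood at 11133 CPM in RP-6306 and 10839 CPM in vehicle marker-clean barcodes (ratio 1.03, 0.866 to 1.22). Cxcr2, the receptor for CXCL1 and CXCL2, had 23 UMIs in 17 of 39 RP-6306 barcodes and 8 UMIs in 6 of 25 vehicle barcodes (ratio 1.51, 0.652 to 3.90). Il1r2 went the other way, with 21 UMIs in 13 RP-6306 barcodes and 21 in 12 vehicle barcodes (ratio 0.525, 0.273 to 1.01). Csf3r had 21 and 16 UMIs (ratio 0.689, 0.343 to 1.41), and Retnlg stood at 13853 CPM in RP-6306 and 11950 CPM in vehicle barcodes (ratio 1.16, 0.989 to 1.36). All 5 intervals include 1. Without the 5 granule-high barcodes Retnlg was at 9032 CPM in the RP-6306 library, which turned its ratio below 1 (0.626 to 0.913).

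Every marker-clean barcode with a granule transcript also held a mature one. In the RP-6306 library 7 barcodes held both, 28 mature genes alone and 4 neither, and in the vehicle library 1 held both, 21 mature genes alone and 3 neither. No barcode held granule genes alone. Across the marker-clean barcodes with under 5 granule UMIs, Retnlg went with S100a8 per UMI of the barcode (Spearman rho 0.70 over 34 RP-6306 barcodes and 0.66 over 25 vehicle barcodes). Thinned to 500 UMIs, rho was 0.63 (RP-6306) and 0.69 (vehicle). The points share a library, and S100a8 was used by the rule.

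**Figure D2:**
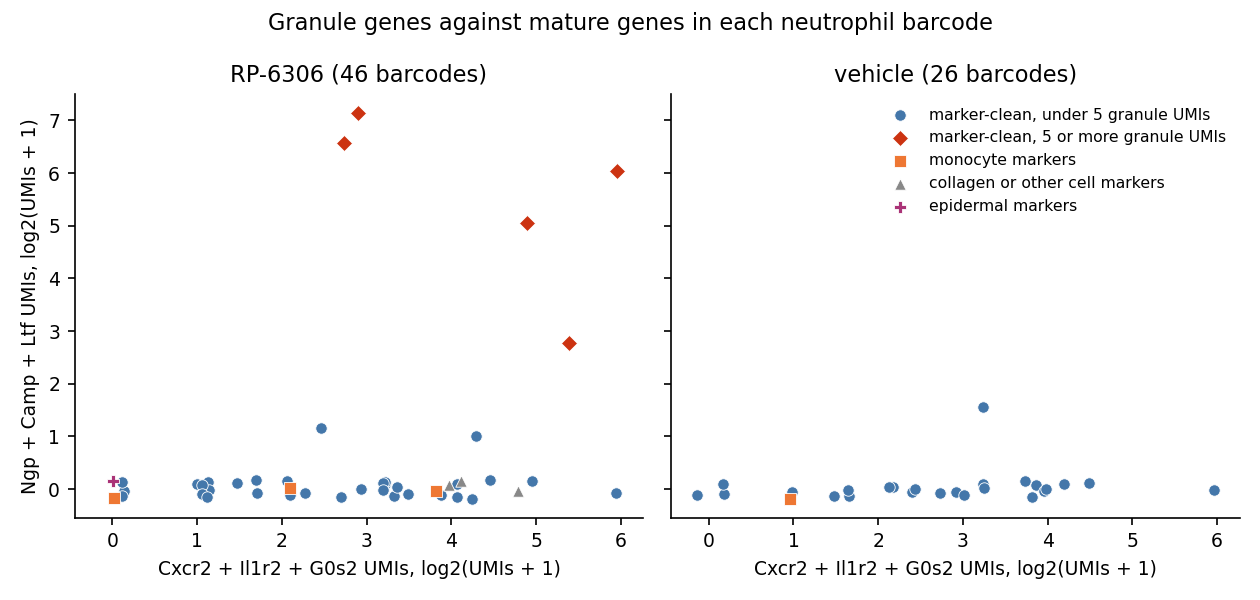
Each point is a neutrophil barcode, with the UMIs of Cxcr2, Il1r2 and G0s2 (x) against those of Ngp, Camp and Ltf (y), both as log2(UMIs + 1) with a small random shift to separate points, RP-6306 left and vehicle right. The 5 granule-high RP-6306 barcodes stand at 6 to 149 granule UMIs with 6 to 64 mature UMIs, while every vehicle barcode lies at 0 to 2 granule UMIs.

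The depth let only abundant genes be compared. Of 431 genes with at least 30 UMIs over all 72 barcodes, 84 (19.5%) were at least 2-fold higher in the RP-6306 library and 37 (8.58%) at least 2-fold lower, on log2(CPM + 1). With TMM scaling, which moves the log2 ratios up by 0.55, the split was 161 and 5. Many of the higher genes came from the mixed barcodes: the epidermal fatty acid binding gene Fabp5 had 1066 UMIs in the RP-6306 and 4 in the vehicle neutrophils, and 1 barcode held 96.7% of them. In the marker-clean barcodes 16 of 247 genes (6.48%) were at least 2-fold higher and 9 (3.64%) at least 2-fold lower, and 31 and 5 with TMM scaling, which moves the ratios up by 0.32. Without the granule-high barcodes these were 11 of 199 (5.53%) and 4 (2.01%), and 12 and 3 with TMM scaling, a shift of 0.10. The median log2 ratio over all genes measured was 0.02 in all barcodes, -0.03 in the marker-clean ones and 0.06 without the granule-high ones.

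The immediate-early list holds transcription factors and regulators, many but not all of them induced within minutes of a stimulus. It had the lowest median log2 ratio of the lists plotted here in the marker-clean barcodes. Among marker-clean barcodes 12 of 12 measured members were lower under CPM, where 129 of all 247 measured genes were lower. Under each of 4 other scalings 11 of 12 members were lower. Under CPM 4 of the 12 were past 2-fold, a share to be read beside the 3.64% of all measured genes. The median log2 ratio was -0.71, and the summed level was 29567 CPM in the RP-6306 library and 50336 CPM in the vehicle library, a ratio of 0.587 (0.538 to 0.642). Over all 72 barcodes 12 of 13 were lower with a median of -0.77, and without the granule-high barcodes 11 of 12 with a median of -0.51. Of all measured genes 209 of 431 and 89 of 199 were lower in these sets. With TMM scaling the median over all 72 barcodes was -0.22, with 8 of 13 lower.

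Among its members Jund, a subunit of the AP-1 factor, had 90 UMIs in 28 of 39 RP-6306 barcodes and 126 UMIs in 24 of 25 vehicle barcodes, which is 2499 against 6662 CPM (ratio 0.375, 0.283 to 0.495). Btg2, an antiproliferative factor, stood at 1277 CPM in RP-6306 and 3543 CPM in vehicle barcodes (ratio 0.360, 0.242 to 0.533). Egr1 was at 805 against 2221 CPM (ratio 0.363, 0.218 to 0.596) and Atf3 at 555 against 1269 CPM (ratio interval 0.229 to 0.827). Other members differed less. Klf2, a factor that restrains myeloid activation, was at 5969 against 8936 CPM (ratio 0.668, 0.544 to 0.822), Junb at 3331 against 5499 CPM and Fos at 2804 against 4177 CPM. Klf6 was at 1499 against 1533 CPM. Klf2 ran from 0 to 23 UMIs per barcode with a median of 4 in the RP-6306 library and from 0 to 25 with a median of 6 in the vehicle library, so single cells overlapped. The ratios over all 72 barcodes were 0.349 for Jund, 0.304 for Btg2, 0.499 for Klf2 and 0.910 for Fos, the last with an interval of 0.720 to 1.16 that includes 1.

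The same list summed to 20513 CPM in RP-6306 and 22685 CPM in vehicle C1q macrophages (276 and 256 barcodes, ratio 0.904, 0.890 to 0.919). In other myeloid barcodes low in C1q it was 27380 and 29101 CPM (126 and 123 barcodes, ratio 0.941, 0.917 to 0.965), and in keratin-positive barcodes 21315 and 21006 CPM (ratio 1.01). The ratios of the other populations were thus nearer to 1. Whether the neutrophils differ from them in this cannot be tested with 1 library per group. These genes are also expressed in the keratin-positive barcodes, Fos at 3850 and Jund at 2082 CPM, and what free RNA adds to a shallow neutrophil barcode was not tested.

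Outside that list the lower genes in the marker-clean barcodes included Pim1, a survival kinase, with 40 UMIs in 20 of 39 RP-6306 barcodes and 45 UMIs in 21 of 25 vehicle barcodes (1110 against 2379 CPM, ratio 0.467, 0.297 to 0.731). Without the granule-high barcodes its ratio interval was 0.414 to 1.02. Il1b was at 4803 CPM in RP-6306 and 8407 CPM in vehicle barcodes (ratio 0.571, 0.458 to 0.713), and without the granule-high barcodes the RP-6306 level was 6724 CPM (0.640 to 1.0). Pim1 and Il1b had ratios of 0.257 and 0.390 over all 72 barcodes. Il1rn, the antagonist of the same receptor, had 2 and 10 UMIs. Clic1 was at 583 against 1639 CPM, in a gene that keratin-positive barcodes hold at 1136 CPM.

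**Figure D3:**
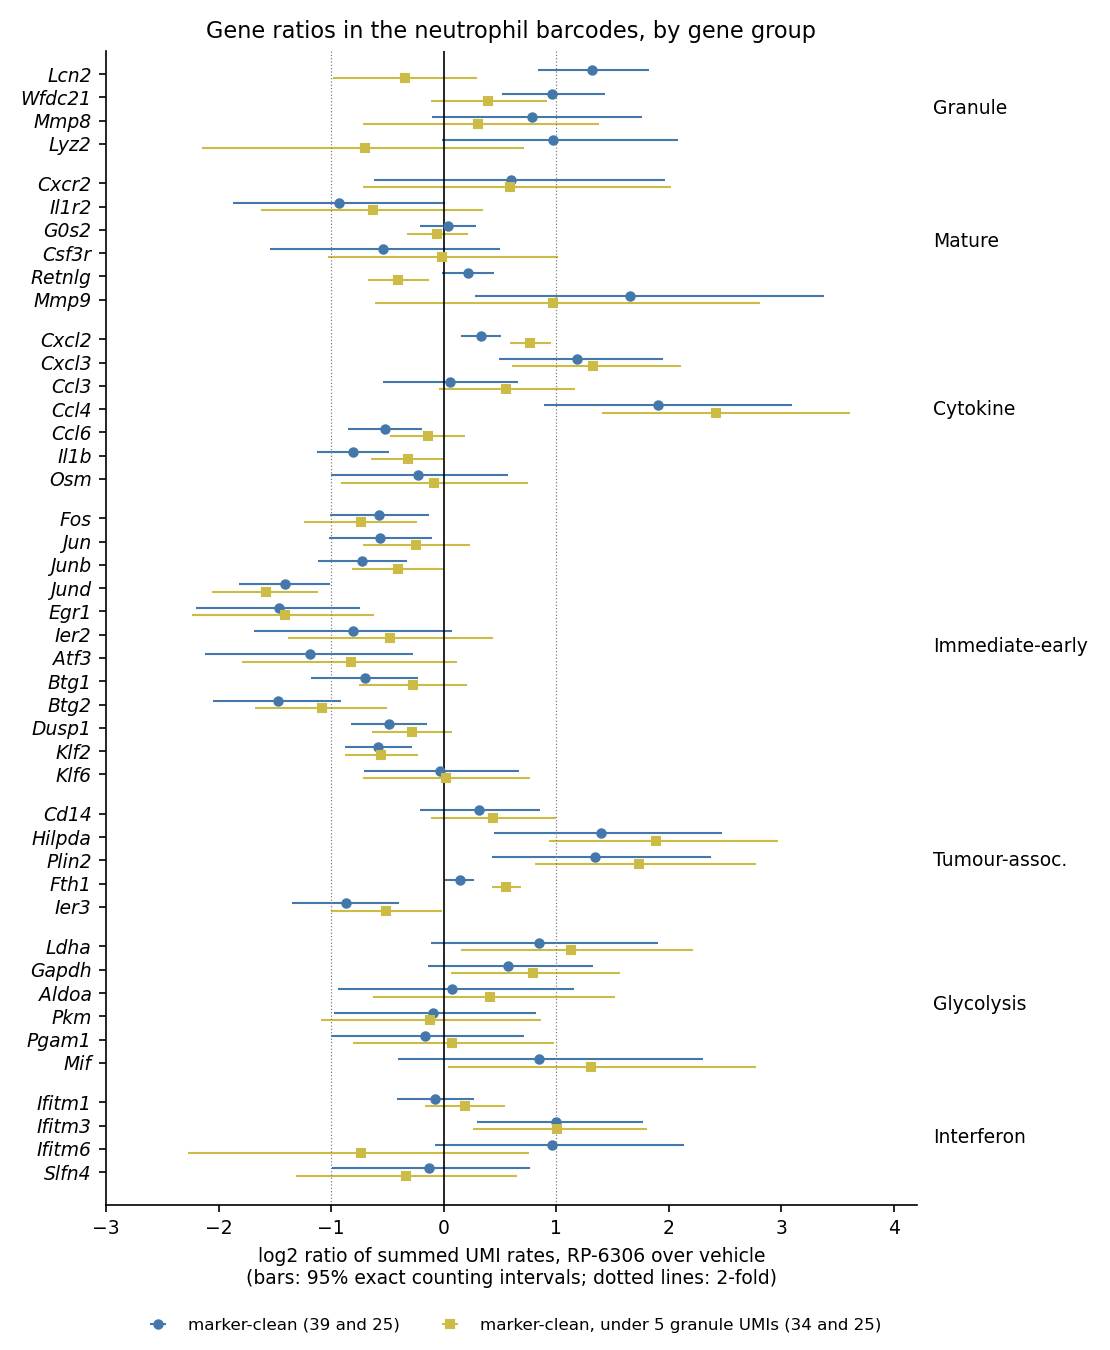
Log2 ratio of summed UMI rates, RP-6306 over vehicle, with 95% exact counting intervals, for named genes in 39 and 25 marker-clean barcodes (circles) and in the 34 and 25 with under 5 granule UMIs (squares); dotted lines mark 2-fold. Jund, Egr1 and Btg2 lie below the lower line in both sets, Ccl4, Cxcl3 and Hilpda lie above the upper line in both, and Lcn2 and Retnlg change sides when the granule-high barcodes are left out.

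Chemokine and cytokine genes, through which neutrophils draw in further leukocytes, went both ways. In the marker-clean barcodes 4 of 7 measured members were higher and 3 lower, with a median of 0.05, which was 0.55 without the granule-high barcodes and -0.70 over all 72 barcodes. Cxcl2, the most abundant, stood at 24209 CPM in RP-6306 and 19246 CPM in vehicle barcodes (ratio 1.26, 1.11 to 1.43), with 0 to 146 UMIs per barcode (median 9) against 0 to 83 (median 10). Cxcl3, a ligand of the same receptor, had 91 UMIs in 14 RP-6306 barcodes and 21 UMIs in 7 vehicle barcodes (2526 against 1110 CPM). Ccl4, a chemokine gene, had 64 UMIs in 8 barcodes against 9 UMIs in 2 (1777 against 476 CPM, ratio 3.73, 1.85 to 8.53). Ccl4 thus rested on few cells. Ccl6 was lower, at 5081 against 7297 CPM (ratio 0.696, 0.555 to 0.875), but without the granule-high barcodes the RP-6306 level was 6605 CPM and the interval, 0.718 to 1.14, included 1. Osm, the gene of oncostatin M, was at 1083 against 1269 CPM (ratio interval 0.500 to 1.48). Cxcl2 was on the lower side over all 72 barcodes with a ratio of 0.767 (0.679 to 0.868), where Ccl4 had a ratio of 2.30 (1.14 to 5.25) and the interval of Cxcl3 included 1 (0.852 to 2.33).

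The list of genes linked to tumour-associated neutrophils had 6 of 10 measured members higher and 4 lower in the marker-clean barcodes (median 0.10), 9 of 10 higher without the granule-high barcodes (median 0.49) and 4 of 11 higher over all 72 (median -0.34). Of all measured genes 118 of 247, 110 of 199 and 222 of 431 were higher in these sets. Past 2-fold and higher were 3, 3 and 2 list members, against 6.48%, 5.53% and 19.5% of all measured genes. Hilpda, a lipid droplet protein induced by low oxygen, stood at 1527 CPM in RP-6306 and 582 CPM in vehicle barcodes (55 and 11 UMIs, ratio 2.63, 1.36 to 5.56), in 16 of 39 against 7 of 25 barcodes. Plin2, which coats lipid droplets, was at 1610 against 634 CPM (58 and 12 UMIs, ratio interval 1.35 to 5.19), in 26 against 7 barcodes. Over all 72 barcodes the intervals of Hilpda (0.834 to 3.39) and Plin2 (0.927 to 3.32) included 1. Fth1, the most abundant gene of the list, was at 42893 against 38915 CPM, and lower over all 72 barcodes (ratio 0.670, 0.615 to 0.732). Ier3, a stress-response gene, was lower at 2165 against 3966 CPM (ratio 0.546, 0.393 to 0.760). Siglecf, a marker of one tumour neutrophil subset in mice, was at 0 in all 72 barcodes.

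Of 7 measured hypoxia and glycolysis genes 5 were higher in the marker-clean barcodes, with a median of 0.57, and 7 of 7 with TMM scaling, under which 171 of all 247 measured genes were higher. Past 2-fold was 1 of the 7, against 6.48% of all measured genes. Ldha, lactate dehydrogenase A, had 41 and 12 UMIs (1138 against 634 CPM, ratio interval 0.925 to 3.75) and Gapdh 65 and 23 UMIs (1805 against 1216 CPM, 0.910 to 2.50). Both intervals include 1. The summed list stood at 11049 CPM in RP-6306 and 8354 CPM in vehicle barcodes (ratio 1.32, 1.10 to 1.60) and at 10251 and 8429 CPM over all 72 barcodes (ratio 1.22), against 8760 and 9701 CPM in keratin-positive barcodes.

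**Figure D4:**
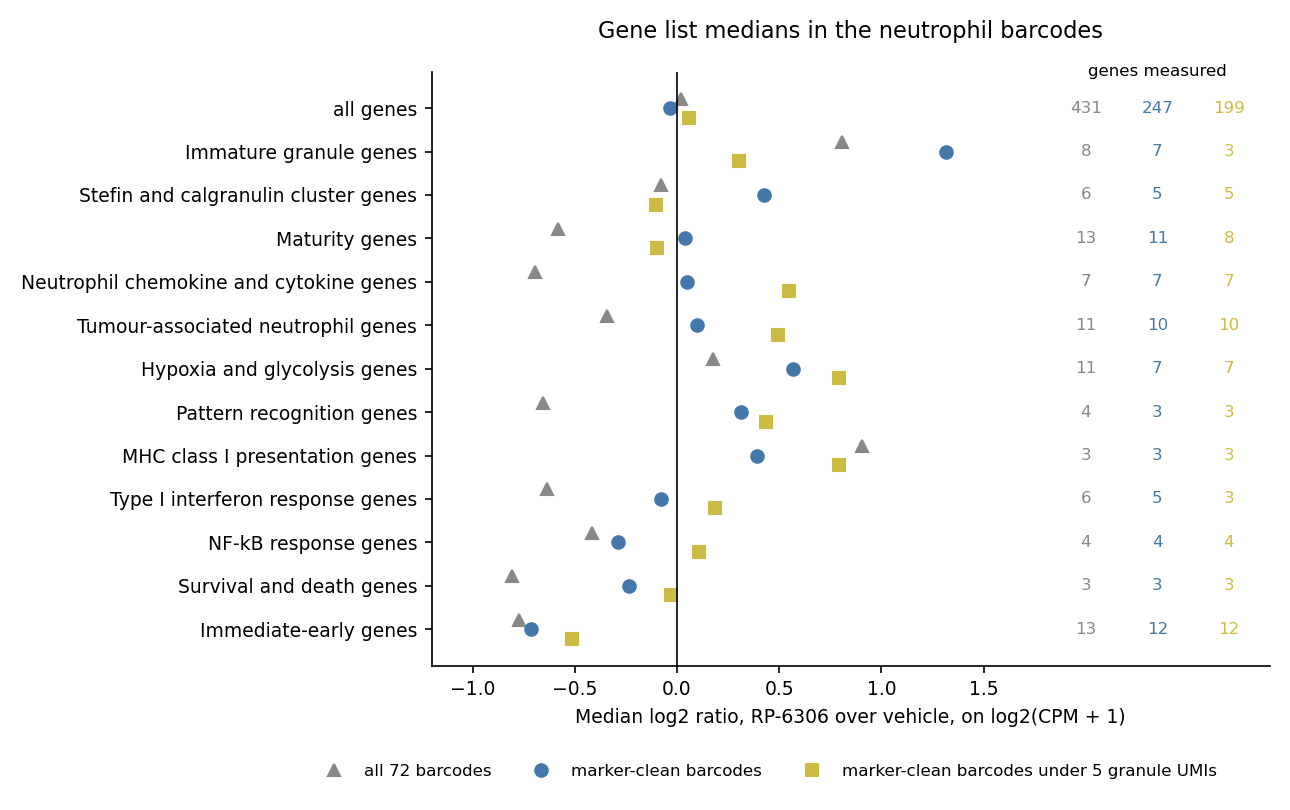
Median log2 ratio, RP-6306 over vehicle on log2(CPM + 1), of each gene list with at least 3 measured genes in every set, over all 72 barcodes (triangles), the marker-clean ones (circles) and those of them with under 5 granule UMIs (squares), with the number of genes measured at the right. Immediate-early genes lie at -0.77, -0.71 and -0.51, while the chemokine, tumour-associated, interferon, pattern recognition, maturity, stefin and calgranulin, and NF-kB lists change sign between the sets.

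Few interferon-stimulated genes had enough UMIs in neutrophils to be compared. Of 35 type I interferon response genes 28 had a UMI in the marker-clean barcodes and 5 reached 30 UMIs, of which 2 were higher and 3 lower (median -0.08). Over all 72 barcodes 2 of 6 were higher (median -0.64), and with the mean of per-cell CPM 4 of 6 (0.13), so the sign rests on how cells are weighed. Ifitm3, a membrane protein that blocks viral entry, had 80 UMIs in 27 of 39 RP-6306 barcodes and 21 UMIs in 12 of 25 vehicle barcodes (2221 against 1110 CPM, ratio interval 1.22 to 3.41, and 1.03 to 2.64 over all 72 barcodes). Thinned to 500 UMIs, Ifitm3 was seen in 18 of 39 and 10 of 25. Ifitm1, the most abundant member, was at 5664 against 5975 CPM (ratio 0.948, 0.7496 to 1.20). Isg15, a ubiquitin-like antiviral protein under the 30 UMI limit, had 16 UMIs in 9 RP-6306 barcodes and 3 UMIs in 3 vehicle barcodes. Keratin-positive barcodes, far deeper, held Ifitm3 in 99.4% of both libraries at 1131 CPM (RP-6306) and 1007 CPM (vehicle), and Isg15 in 36.7% (RP-6306) and 27.0% (vehicle), and the part of free RNA in these UMIs was not tested. The summed list was at 12965 CPM in RP-6306 and 11156 CPM in vehicle barcodes, a ratio of 1.16 (0.986 to 1.37). It was 0.831 (0.713 to 0.972) over all 72 barcodes and 1.24 (1.04 to 1.48) without the granule-high ones, so its direction rests on which barcodes enter. The same list had ratios of 1.41 (1.36 to 1.46) in C1q macrophages and 1.36 (1.28 to 1.45) in the other myeloid barcodes low in C1q. Its summed level was lower in C1q macrophages than in the marker-clean neutrophils, at 5184 CPM (RP-6306) and 3680 CPM (vehicle). It was 5551 and 4071 CPM in the other low-C1q myeloid barcodes, and 2262 and 1925 CPM in keratin-positive ones.

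Antigen presentation genes were low. The MHC class II list had 2 UMIs in RP-6306 and 1 UMI in vehicle marker-clean barcodes. Of class I genes H2-D1 was at 972 CPM in RP-6306 and 476 CPM in vehicle barcodes (35 and 9 UMIs, ratio interval 0.962 to 4.83, and 1.11 to 4.70 over all 72 barcodes), H2-K1 at 750 against 846 CPM and B2m at 694 against 529 CPM. Keratin-positive barcodes held more of H2-K1, at 2658 CPM (RP-6306) and 2326 CPM (vehicle), and the part of free RNA in these UMIs was not tested. Among checkpoint genes Cd274, which encodes PD-L1, had 9 UMIs in RP-6306 and 5 in vehicle barcodes, and Arg1 had 0 in both, where the upper Poisson bound of a count of 0 is 102 CPM (RP-6306) and 195 CPM (vehicle).

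Neutrophils can be set beside the other myeloid cells only as a description, since the rule used the same cells, and C1q macrophages were deeper. Srgn, a granule proteoglycan, stood in the marker-clean barcodes at 9356 CPM (RP-6306) and 10310 CPM (vehicle), against 1279 and 1088 CPM in C1q macrophages. Cxcl2 was at 24209 and 19246 CPM against 2859 and 2850 CPM there, and Mcl1, a survival factor that neutrophils depend on, at 3415 and 4018 CPM against 793 and 766 CPM. Lyz2 went the other way, at 1138 and 582 CPM against 4955 and 5540 CPM. Cxcr2 had 0 UMIs in C1q macrophages and 0 in the other low-C1q myeloid barcodes of both libraries. Arg2, an arginase isoform, was at 611 and 687 CPM in neutrophils against 8 CPM in C1q macrophages of each library.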

How the data were processed

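Library preparation used 10x Genomics chemistry for transcript 3′ ends, per the labels. The authors deposited matrices of raw UMI counts, whole numbers with no normalization. Their headers record Cell Ranger 7.1.0, per the file headers, whereas version 2.1.1 and the mm10 build stand in the submitters' processing notes. As this was not resolved, coordinates come from matching gene identifiers (52081 of 55357) to GENCODE M21 on GRCm38, and sequences from RefSeq GRCm38.p6.

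Members, gene lists and added sets were chosen with earlier results of these data known. Counts of the members were summed per library and scaled to CPM here. Log2 ratios put RP-6306 over vehicle with a pseudocount of 1 CPM, which understates differences of low genes, and called at 2-fold for genes with 30 UMIs. Intervals are exact Poisson (levels), Clopper-Pearson (shares) and exact conditional (ratios, no pseudocount); differences of shares use the square-and-add method. Named genes are markers, the most abundant and most different members of each list, the 15 most abundant genes and up to 10 per direction past 2-fold with at most 25% of UMIs in 1 barcode; mitochondrial, ribosomal, haemoglobin and unnamed model genes, and genes under 10% of their level in keratin-positive barcodes, are not named by size. Genes beyond this rule were named after their values were seen: Arg1, Atf3, Clic1, Cxcl3, Egr1, Elane, Mpo, Ctsg, Hilpda, Il1rn, Isg15, Junb, Klf6, Lyz2, Mki67, Mmp8, Osm, Pglyrp1, Plin2 and Siglecf, and the genes of the mixed barcodes. Counts of near-identical copies (class I MHC, Ifitm and stefin genes) are uncertain. No doublet caller was run; barcodes with other cells' markers were left out as an alternative. The code was tested on simulated data. Python 3.11.15, numpy 2.4.6, scipy 1.17.1, pandas 2.3.3, matplotlib 3.10.9, R 4.3.3 and edgeR 4.0.16 (TMM) were used.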

Additional observations from a re-analysis of the deposited data

How the results depend on the processing

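No paired analysis was possible because each group has 1 library, and leaving out a replicate could not be done for the same reason. The neutrophil share of kept barcodes kept its direction under every alternative run (differences of 0.0655 to 0.204 points), as did the summed Ngp, Camp and Ltf (log2 ratios of 4.16 to 6.51), except that it reversed to -0.41 in marker-clean barcodes with under 5 granule UMIs, a set that leaves out those cells by construction. The log2 ratio of the summed Cxcr2, Il1r2 and G0s2, -0.57 over all barcodes, was 0.094 with a calgranulin minimum of 5 UMIs, -0.82 with one of 30, 0.14 with no keratin UMI allowed, 1.01 with at least 500 genes and -0.039 without barcodes holding other cells' markers. It was -0.0021 in marker-clean barcodes, -0.071 in those under 5 granule UMIs, -0.30 without the deepest RP-6306 barcode, -0.29 with the mean of per-cell CPM and -0.21 thinned to 500 UMIs. Under the same 10 settings in that order the type I interferon response list median, -0.64 over all barcodes, was 0.17, -0.11, -0.30, -0.11, -0.16, -0.077, 0.19, -0.36, 0.13 and 0.11, over the list genes with 30 UMIs in each. Over the same 6 genes it was -0.13 when thinned. It was also 0.22 in barcodes with Csf3r, Cxcr2 or Retnlg, 0.066 with a gene minimum of 100 UMIs and -0.089 with TMM scaling. Genes past 2-fold were 121 of 431 measured over all barcodes (28.1%), and the number measured changed with the setting. They were 70 of 607 (11.5%) with a calgranulin minimum of 5 UMIs and 35 of 287 (12.2%) with no keratin UMI. Without other markers they were 31 of 298 (10.4%), marker-clean 25 of 247 (10.1%) and under 5 granule UMIs 15 of 199 (7.54%). They were 54 of 373 (14.5%) without the deepest barcode, 73 of 431 (16.9%) with per-cell means and 17 of 170 (10%) thinned. With a gene minimum of 10 UMIs they were 434 of 1260 (34.4%), and with one of 100 they were 35 of 124 (28.2%). Over the same 431 genes, thinned, 65 were past 2-fold higher and 27 lower. Genes past 2-fold with at least 30 UMIs over all barcodes that turned their sign were Camp (-5.75 under 5 granule UMIs), Il1r2 (0.50 in barcodes with Csf3r, Cxcr2 or Retnlg), Tubb5 (-0.11), Uqcrh (-0.28) and Dbi (-0.28) at a calgranulin minimum of 5, Tubb5 thinned (-0.34), and Ier3 (0.38), Slfn1 (0.54), Lgals3 (-0.52) and Tes (7.87) at 500 genes. Of 57 named genes under 2-fold, such as Retnlg, G0s2 and Cxcr2, 49 turned their sign under at least 1 alternative. Over 94 named genes and all alternatives, 1281 of 1598 values stayed within the counting interval of the main one and 307 left it without such a turn past 2-fold. For moves not set by which barcodes enter, the cause was not tested. At median depths of 737 (RP-6306) and 715 (vehicle) UMIs a barcode, genes under some 30 UMIs per set, most interferon genes among them, could not be compared.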

Other observations

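Genes of oxidative killing, sensing and adhesion were found in neutrophils of both libraries. In the marker-clean barcodes the NADPH oxidase list, the enzyme of the oxidative burst, stood at 3387 CPM in the RP-6306 library and 2749 CPM in the vehicle library (ratio 1.23, 0.883 to 1.74), and over all 72 barcodes at a ratio of 0.845 (0.628 to 1.15). The pattern recognition list stood at 6885 and 7138 CPM (ratio 0.965, 0.779 to 1.20) and the adhesion and migration list at 4220 and 4389 CPM (ratio 0.962, 0.731 to 1.27). All 3 intervals include 1. Over all 72 barcodes the last 2 lists were lower in the RP-6306 library, at ratios of 0.620 (0.505 to 0.764) and 0.618 (0.486 to 0.790).

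Cd14, the co-receptor for bacterial lipopolysaccharide, was the most abundant sensing gene named here, with 104 UMIs in 29 of 39 RP-6306 barcodes and 44 UMIs in 17 of 25 vehicle barcodes. Ccr1, a receptor for CCL3, had 28 UMIs in 18 and 9 UMIs in 6 barcodes (ratio interval 0.749 to 3.94). The adhesion gene Cd44 had 33 UMIs in 20 and 28 UMIs in 15 barcodes (ratio interval 0.363 to 1.06). Id1, an inhibitor of helix-loop-helix factors, had 11 UMIs in 10 RP-6306 barcodes and 19 UMIs in 12 vehicle barcodes (305 against 1005 CPM, ratio 0.304, 0.131 to 0.672). These genes were picked after their values were seen.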
